A study of Homo sapiens with 4 samples.

Results

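The 10 genes described here encode enzymes of glycolysis, the pathway that splits glucose into pyruvate and lactate: *HK2*, *GPI*, *PFKP*, *ALDOA*, *TPI1*, *GAPDH*, *PGK1*, *PGAM1*, *ENO1* and *LDHA*. They were taken by name, as all probes other than controls whose transcript belongs to one of them, and make up 10 of the 17721 genes that could be named on the arrays. They are covered by 17 probes on 35 spots. Total RNA came from Nalm-6, a human B-cell precursor line grown in RPMI medium with serum, and was labelled with Cy3 and hybridized to single-color Agilent arrays. The 4 groups were wild-type cells, Arp5 KO cells, Arp8 KO cells (in both, homologous recombination had disrupted the locus of an actin-related subunit of the INO80 chromatin remodeling complex) and cells labelled Arp8 overexpression, for which the series describes a Tet-Off system placed in Arp8 KO cells. Whether tetracycline was present is not given, and this array is written Arp8 OE below. Each group is 1 array, so no difference below has a replicate check, no p-value is given, and cell line, culture and genotype cannot be told apart. The number of arrays limits the precision. Signals are in scanner units scaled to the 75th percentile of the wild-type array, and a ratio is a log2 difference of such signals. Values on all 4 arrays are given in the order wild-type, Arp5 KO, Arp8 KO and Arp8 OE, and ratios to wild-type cells in the order Arp5 KO, Arp8 KO and Arp8 OE.

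The labels were checked on the arrays themselves. All 9 B-cell precursor markers examined, among them *VPREB1*, *IGLL1*, *PAX5* and *RAG1*, were well above background on all 4 arrays. Their levels were not all alike; *VPREB1*, for instance, read 37374, 34135, 24538 and 41399 units on the wild-type, Arp5 KO, Arp8 KO and Arp8 OE arrays. For other cell types the brightest probes of the genes were summed, a rough measure since probes are not on a common scale. Markers of T cells (*CD3D*, *CD3E*, *CD8A*) summed to between 159 and 187 units, with *CD8A* the brightest and *CD3D* at background. The 4 myeloid markers summed to 222, 209, 341 and 307 units in the same order of arrays, with *MPO* at background, and *CD14* or, on both Arp8 arrays, *LYZ* the brightest. The 3 erythroid markers summed to between 109 and 115 units, with *HBB* at background, and the fibroblast markers to between 8.09 and 13.0 units, with *COL1A2* at background. The part of such signals in any result was not tested. The *ACTR5* probe, for the gene of Arp5, read 1909, 66.3, 1827 and 2055 units on the 4 arrays, so that only the Arp5 KO reading was low. For *ACTR8*, the gene of Arp8, one probe read 1092, 1009, 776 and 669 units, and the other read 2149, 2268, 1634 and 1828. Against wild-type cells its log2 ratio came to −0.44 for Arp8 KO and −0.47 for Arp8 OE. The signal of these probes was thus not higher on the Arp8 OE array than in wild-type cells, against the label. In Arp8 KO over Arp8 OE the probes had 0.21 and −0.16. Whether they read the transcript of the Tet-Off system was not tested. On the Arp8 KO array both *ACTR8* probes stayed well above background, and the gene was 1.36-fold lower than in wild-type cells. Whether these probes lie in the disrupted part of the gene was not tested, so they do not check the Arp8 KO label, and that name is used below as labelled. *INO80*, the ATPase of the complex, had log2 ratios to wild-type cells of 0.88, 1.05 and 0.27. Of these, the value for Arp8 KO came under 2-fold with 2 of 11 alternatives. It was 0.93 with scaling to the spike-in RNAs and 0.995 with normexp background correction followed by quantile normalization (written normexp below).

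Glycolysis starts with an investment of ATP. Hexokinase traps glucose as glucose 6-phosphate, phosphoglucose isomerase and phosphofructokinase turn it into fructose 1,6-bisphosphate, and aldolase and triose phosphate isomerase yield glyceraldehyde 3-phosphate. The payoff steps of GAPDH, phosphoglycerate kinase, phosphoglycerate mutase, enolase and pyruvate kinase give NADH and ATP, and lactate dehydrogenase A returns NAD+ by reducing pyruvate. Proliferating lymphoid cells and leukemia lines run this pathway at a high rate, and the hypoxia-inducible factor HIF-1 and MYC are its best known transcriptional activators.

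Each comparison with wild-type cells asks how mRNA levels stood in cells labelled as lacking a subunit of INO80, or as carrying the Tet-Off system. The mRNAs of the 10 enzymes differed little among the 4 arrays. None of them was 2-fold or 1.5-fold away from wild-type cells on any of the other arrays, and none was between both Arp8 arrays (0 of 10 genes in each of the 4 comparisons). At 1.5-fold the count became 1 in Arp5 KO cells, *PGAM1*, with normexp and with the authors' table. Of all probes measured, 2.32% lay beyond 2-fold in Arp5 KO over wild type, 3.56% in Arp8 KO over wild type, 4.24% in Arp8 OE over wild type and 1.86% in Arp8 KO over Arp8 OE. Beyond 1.5-fold these shares were 8.89%, 12.3%, 13.3% and 8.46%. Large ratios were rarer among bright probes such as those of most glycolysis genes: of the 3868 probes with a mean signal over 10000 units, 1.53%, 2.64%, 2.02% and 1.47% lay beyond 1.5-fold. At these shares a count of 0 among 10 genes does not set the glycolysis genes apart from other bright probes.

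Within those bounds, most of the enzymes read slightly lower than in wild-type cells. Arp5 KO cells had 8 of 10 genes below wild-type cells, with a median log2 ratio of −0.17, and the count was 8 or 9 under each scaling tried. In Arp8 KO cells 9 of 10 lay below, with a median of −0.17 and a count of 8 or 9 under each scaling. Among these, *GPI* at −0.01 and *PFKP* at −0.02 differed by less than the median SD of 0.03 between repeated spots. On the Arp8 OE array 8 of 10 lay below, under each scaling, with a median of −0.15. These medians are 1.12-fold, 1.13-fold and 1.11-fold differences, and with scaling to the spike-in RNAs they were −0.09, −0.29 and −0.15. At the scaling used here the medians over all probes measured were 0.04, 0.01 and 0.01, and over the probes above 10000 units 0.06, 0.04 and 0.07. Of those bright probes, 36.4%, 41.4% and 36.0% lay below 0. The 3 comparisons use the same wild-type array, so a high reading of these probes on it would appear in each of them, and the direction cannot be counted as seen 3 times. The comparison of Arp8 KO with Arp8 OE does not use the wild-type array, and there the median of the 10 genes was −0.01, with 6 of 10 below 0, between 4 and 9 under the other scalings, beside 54.4% of the bright probes. In a bulk extract, a lower level in every cell and a low level in a share of the cells cannot be told apart.

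**Figure D1:**
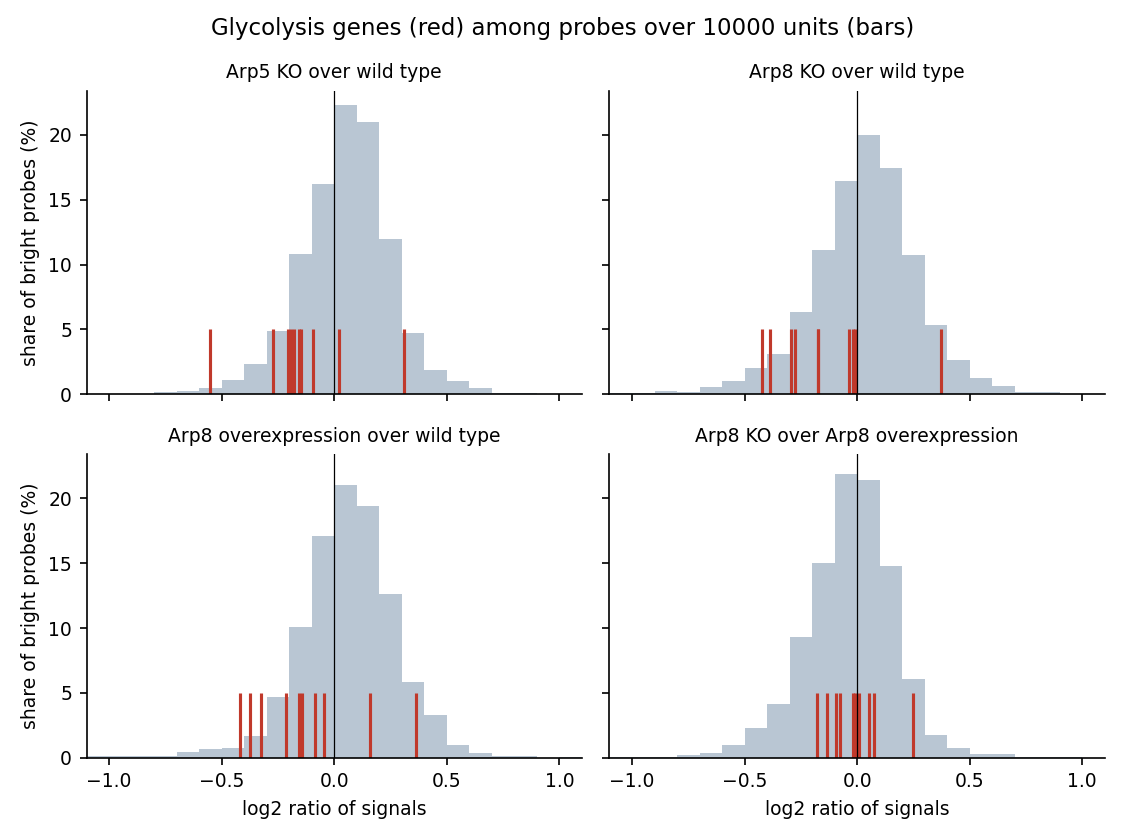
Bars give the share, in percent, of the 3868 probes over 10000 units in each bin of the log2 ratio, and red lines mark the 10 glycolysis genes, in 4 comparisons with 1 array on each side. Against wild-type cells 8, 9 and 8 of the 10 lines lie below 0 (8 or 9 under each scaling), and between both Arp8 arrays they lie around 0.

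Set out by array, 13 of the 17 probes were brightest on the wild-type array, 1 on the Arp5 KO, 2 on the Arp8 KO and 1 on the Arp8 OE array. Of the bright probes in general 18.4% were brightest in wild-type cells and 41.2% were dimmest there. At this scaling the lowest of the 4 readings was that of Arp5 KO for 6 glycolysis probes, of Arp8 KO for 7, of Arp8 OE for 3 and of wild type for 1. How far a ratio varies between spots was taken as its technical error. For the 47 probes over 10000 units that are spotted several times, the median SD of the log2 ratio was 0.03 in each comparison with wild-type cells. This error covers spots of 1 hybridization and not cultures, RNA preparations or arrays. Scaling to the spike-in RNAs in place of the 75th percentile, chosen after seeing the data, raises the Arp5 KO ratios by about 0.08 and moves those of Arp8 KO by about −0.11, so the order of these arrays can turn for genes on which they lie close.

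**Figure D2:**
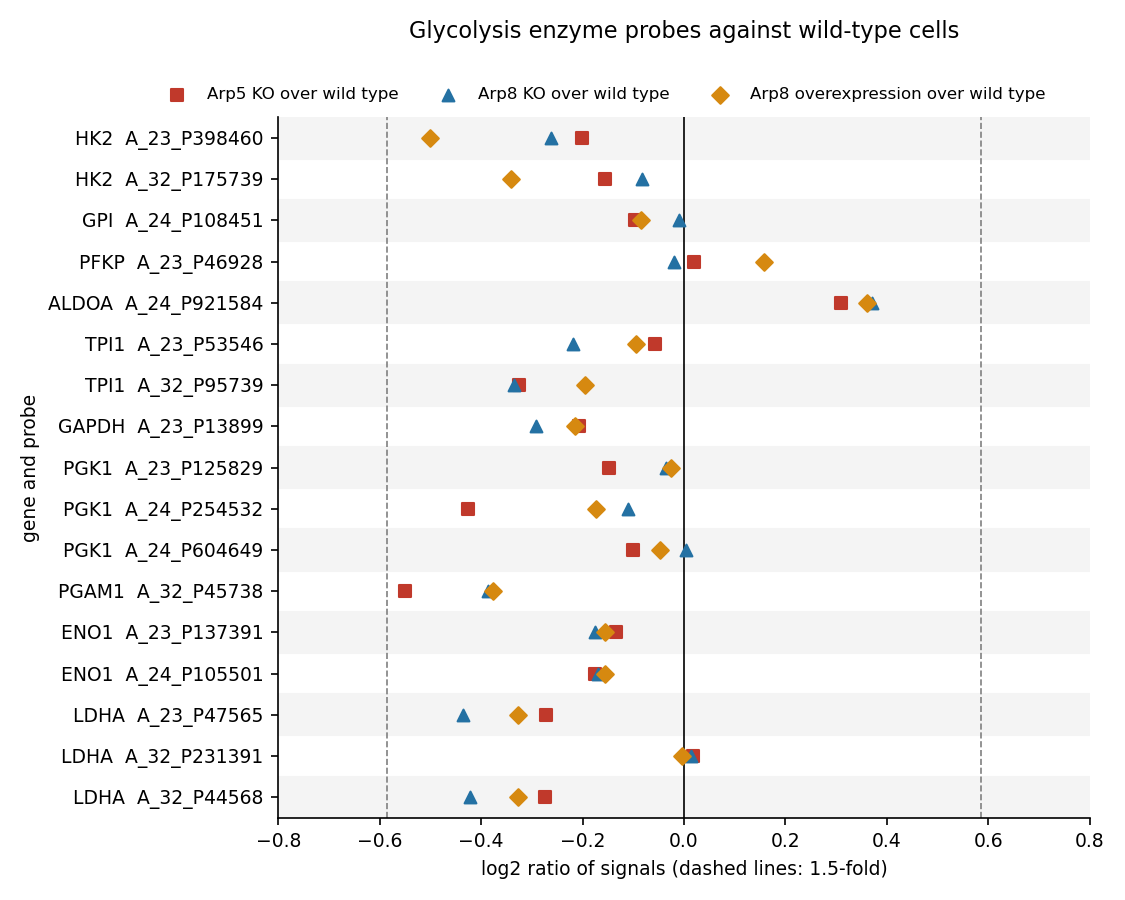
Log2 ratio of the signal to that in wild-type cells (horizontal axis) for the 17 probes of the 10 genes, in pathway order, 1 array per group, with dashed lines at 1.5-fold. The *PGAM1* probe reaches farthest to the left, at −0.55 in Arp5 KO cells, and *ALDOA* lies to the right of 0 on all 3 arrays under each scaling. The *LDHA* probe A_32_P231391 stays at 0.02 or closer to 0.

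Signals of the members are given for one probe at a time, since those of different probes are not on a common scale. Among the enzymes of the investment steps, *HK2*, the inducible hexokinase bound to mitochondria, was lowest on the Arp8 OE array. Its probe A_32_P175739 read 24378, 21892, 23016 and 19246 units on the wild-type, Arp5 KO, Arp8 KO and Arp8 OE arrays. The dimmer probe A_23_P398460 gave 419, 364, 349 and 296 units in that order. Both probes were thus highest in wild-type cells and lowest on the Arp8 OE array, and the log2 ratio of the gene to wild-type cells was −0.18, −0.17 and −0.42. Between both Arp8 arrays *HK2* had the widest difference of the 10 genes, 0.25 higher in Arp8 KO cells on the log2 scale (0.14 to 0.27 under the alternatives). That rank is lost with scaling to the spike-in RNAs, where *PFKP*, *TPI1*, *LDHA* and *GAPDH* at −0.29, −0.24, −0.20 and −0.18 lay farther from 0 than *HK2* at 0.14.

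*GPI*, which isomerizes glucose 6-phosphate, read 70377, 65816, 69855 and 66345 units on the wild-type, Arp5 KO, Arp8 KO and Arp8 OE arrays. Against wild type it had log2 ratios of −0.10, −0.01 and −0.09. Under the alternatives the first lay between −0.24 and −0.02, and the last between −0.24 and −0.06. Arp8 KO cells thus read closest to wild type, but with scaling to the spike-in RNAs they read lowest, at −0.02, −0.12 and −0.09, and without scaling their ratio turned to 0.01. *PFKP*, the platelet-type isoform of phosphofructokinase, the committed step, read 44475, 45070, 43884 and 49627 units in the same order. Its log2 ratios against wild type were 0.02, −0.02 and 0.16, and the first turned below 0 under 4 alternatives. The Arp8 OE value stayed between 0.11 and 0.18 under the alternatives, and with scaling to the spike-in RNAs the others came to 0.10 and −0.13.

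*ALDOA*, which splits fructose 1,6-bisphosphate, was the 1 gene of the 10 above wild-type cells on all 3 of the other arrays, under each scaling. Its 1 probe read 21698, 26881, 28068 and 27868 units on the wild-type, Arp5 KO, Arp8 KO and Arp8 OE arrays. The wild-type reading is the low one and the other arrays lie close together, with log2 ratios to wild-type cells of 0.31, 0.37 and 0.36 that were 0.25 or higher under each alternative. *TPI1*, which interconverts the triose phosphates, was measured by 2 probes that both read highest in wild-type cells. A_32_P95739 gave 82349, 65686, 65237 and 71891 units on the wild-type, Arp5 KO, Arp8 KO and Arp8 OE arrays, while A_23_P53546 gave 13066, 12565, 11233 and 12243. In Arp5 KO cells these probes differ in size, with log2 ratios of −0.33 and −0.06, and the gene value was −0.19. For Arp8 KO and Arp8 OE the gene values were −0.28 and −0.14.

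*GAPDH*, the NADH-forming step and a common reference gene for RNA measurements, was spotted 10 times. Its mean signal was 168630, 146137, 137738 and 145252 units on the wild-type, Arp5 KO, Arp8 KO and Arp8 OE arrays. Single spots ranged from 156972 to 179209 units (wild type), 139162 to 155053 (Arp5 KO), 132436 to 146301 (Arp8 KO) and 139080 to 154085 (Arp8 OE). The wild-type spots did not overlap those of any other array, and the spots of the other arrays overlapped one another. With scaling to the spike-in RNAs the Arp5 KO spots, from 147192 to 164000 units, overlapped the wild-type spots, and the Arp8 KO spots, from 122510 to 135336, lay below those of all other arrays. Log2 ratios against wild type came to −0.21 ± 0.03 (SD of the ratio, n = 10 spots), −0.29 ± 0.03 and −0.22 ± 0.04, which are 1.15-fold, 1.22-fold and 1.16-fold lower, and they stayed below 0 under each scaling.

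*PGK1*, the first ATP-forming step, was lowest in Arp5 KO cells on each of its 3 probes at the scaling used here. The repeated probe A_23_P125829 averaged 96942 units in wild-type and 87485 in Arp5 KO cells, from 9 spots each, and 94590 units for Arp8 KO and 95255 for Arp8 OE, from 10 spots each. Its spots in Arp5 KO cells, from 84980 to 92930 units, lay below the lowest wild-type spot of 95111, whereas the spots of both Arp8 arrays overlapped the wild-type spots. This turns with scaling to the spike-in RNAs, at which the Arp5 KO spots, from 89884 to 98292 units, overlapped the wild-type spots and the Arp8 KO spots, from 84227 to 92997, lay below them. A_24_P604649 gave 28026, 26135, 28111 and 27115 units, and the dimmest probe, A_24_P254532, gave 1241, 923, 1149 and 1100. The gene values against wild-type cells were −0.15, −0.04 and −0.05, or −0.07, −0.15 and −0.05 with that scaling, and the dimmest probe alone had −0.43 in Arp5 KO cells.

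**Figure D3:**
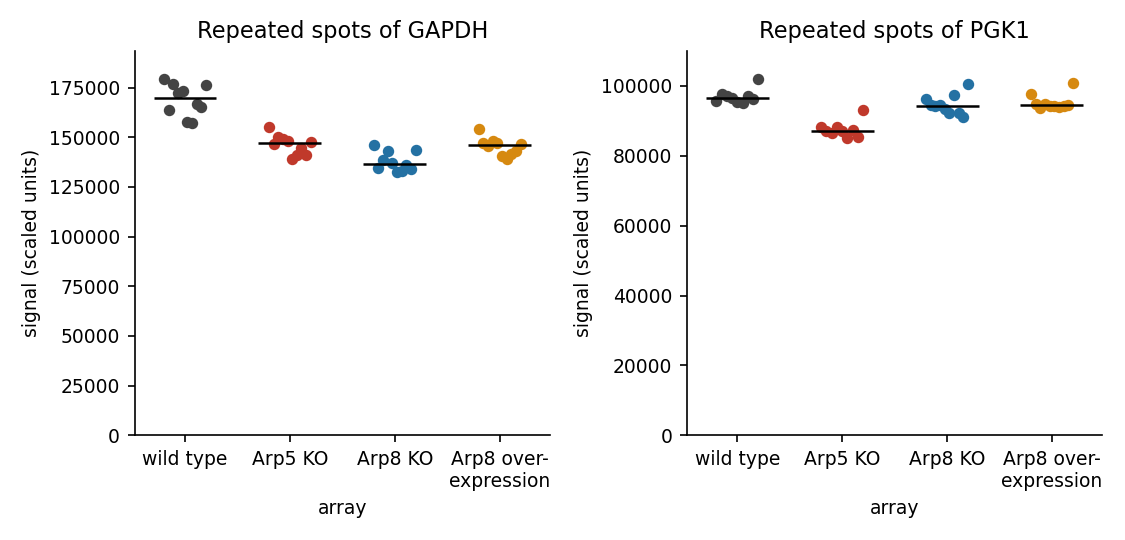
Signal of each spot (vertical axis, scaled units) of the repeated *GAPDH* and *PGK1* probes on the 4 arrays, 9 or 10 spots of 1 hybridization each, with the median as a line. At this scaling the wild-type *GAPDH* spots lie above all others and the Arp5 KO spots of *PGK1* lie apart from the wild-type ones, and with scaling to the spike-in RNAs the Arp5 KO spots of both genes overlap the wild-type ones.

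*PGAM1*, the phosphoglycerate mutase of most tissues, had the widest range of the 10 genes over the 4 arrays, 0.55 on the log2 scale (with scaling to the spike-in RNAs *LDHA* reached farther, to −0.53 in Arp8 KO cells). Its 1 probe read 41650, 28441, 31858 and 32093 units on the wild-type, Arp5 KO, Arp8 KO and Arp8 OE arrays. Wild-type cells were highest, Arp5 KO cells lowest, and both Arp8 arrays differed by −0.01 (−0.12 to 0.09 under the alternatives, with the sign turned in 4). These are log2 ratios of −0.55, −0.39 and −0.38 against wild type, or 1.46-fold, 1.31-fold and 1.30-fold lower, and the first was −0.59 with normexp and with the authors' table, just beyond 1.5-fold. With scaling to the spike-in RNAs they were −0.47, −0.50 and −0.38, so that Arp8 KO cells read lowest. The 5th percentiles of the probes over 10000 units were −0.29, −0.38 and −0.27, and *PGAM1* lay below each, narrowly in Arp8 KO cells. *LDHA* also lay below them in Arp8 KO cells, at −0.42, and on the Arp8 OE array, at −0.33. From the mean of its probes *LDHA* lay below neither, at −0.28 and −0.22. *HK2* lay below the 5th percentile on the Arp8 OE array, at −0.42.

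*ENO1*, the main enolase of dividing cells, was measured by 2 probes with like ratios. A_24_P105501 read 111543, 98803, 99151 and 100121 units on the wild-type, Arp5 KO, Arp8 KO and Arp8 OE arrays, and A_23_P137391 read 79128, 72078, 70057 and 70998. Wild-type cells were highest on both, and the gene values were −0.15, −0.17 and −0.16, or −0.07, −0.29 and −0.16 with scaling to the spike-in RNAs.

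*LDHA*, which makes lactate, had the lowest ratio of the 10 genes in Arp8 KO cells, but its 3 probes did not behave alike. A_23_P47565 read 78773, 65189, 58271 and 62810 units on the wild-type, Arp5 KO, Arp8 KO and Arp8 OE arrays. A_32_P44568 gave 22246, 18396, 16610 and 17722 units, with almost the same ratios, although its signal came from the low-gain scan in wild-type cells and from the high-gain scan on the other arrays. A_32_P231391 gave 43470, 44020, 43893 and 43323 units, with log2 ratios to wild-type cells of 0.02, 0.01 and −0.00. The median of the 3 probes was −0.27, −0.42 and −0.33 against wild type, and it rests on the probes that differ from wild-type cells. From the mean of the probes the values were −0.18, −0.28 and −0.22, and in Arp8 KO cells *PGAM1* at −0.39 and *GAPDH* at −0.29 were then lower. All 3 carry the same transcript name, and which part of the transcript each reads was not tested.

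Several of these genes have pseudogenes, copies whose transcripts a probe could also read. By symbol, the RefSeq gene table lists 65 for *GAPDH*, 13 for *PGAM1*, 6 for *LDHA*, 4 each for *TPI1* and *ENO1*, 2 each for *ALDOA* and *PGK1*, 1 for *HK2* and 0 for *GPI* and *PFKP*. Probe sequences were not among the data, so the share of signal from such copies was not tested.

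The promoters were read for short motifs because HIF-1 and MYC act through known core motifs. RefSeq promoters (GRCh38.p14, from 250 bases before to 50 after the start) were at hand for all 10 genes and for 27305 genes in all. The motifs, sought on both strands, were ACGTG and GCGTG, the cores of the hypoxia response element, and CACGTG, the E-box bound by MYC, which contains the first of them. The letters ACGTG were found in 6 of the 10 promoters (*ALDOA*, *GAPDH*, *GPI*, *HK2*, *LDHA*, *PGK1*) and in 21.6% of all, GCGTG in 4 of 10 (*ENO1*, *HK2*, *LDHA*, *PGK1*) and in 36.3% of all, and CACGTG in 2 of 10 (*GAPDH*, *LDHA*) and in 7.43% of all. The median GC content was 70.4% in the 10 promoters and 58.3% in all. *PFKP*, *TPI1* and *PGAM1* had none of these letters in their windows, and for *GPI*, *GAPDH* and *PGAM1* the start used lies over 500 bases inside the gene as annotated, so another start may have another promoter. The windows around the E-boxes and around 1 ACGTG each of *HK2* and *PGK1* are shown, on the plus strand, which is the strand of these genes, with the motif in capitals (as its reverse complement for *HK2*):
*LDHA*, chr11:18394366-18394395: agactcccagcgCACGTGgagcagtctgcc
*LDHA*, chr11:18394464-18394493: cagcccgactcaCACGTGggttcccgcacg
*GAPDH*, chr12:6535171-6535200: gctctgcggggtCACGTGtcgcagaggagc
*HK2*, chr2:74834067-74834095: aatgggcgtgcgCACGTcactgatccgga
*PGK1*, chrX:78104034-78104062: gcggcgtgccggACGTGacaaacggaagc
Binding of a factor was not measured.

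Among 19116 probes of named genes outside the gene lists detected on all 4 arrays, those closest in profile to *PGAM1* were of *METTL9*, *MAZ*, *APBB2*, *ARFGAP1* and *TDRKH*, with Euclidean distances of 0.04, 0.04, 0.04, 0.05 and 0.05 between log2 profiles over the 4 arrays. *METTL9* had log2 ratios to wild-type cells of −0.52, −0.40 and −0.40. With 4 values to a profile, 69 probes lay within a distance of 0.1, so the likeness singles out no gene.

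The 19 other enzymes and isozymes of glycolysis include isoforms of other tissues, and 15 of them were detected (well above background on at least 1 array). Of these 15, 0 lay beyond 2-fold in any comparison. Against wild type 2.32%, 3.56% and 4.24% of all probes did, and 1.86% between both Arp8 arrays. At these shares a count of 0 among 15 genes does not set them apart. Their median log2 ratios against wild type were −0.01, 0.06 and −0.15. *PKM*, the pyruvate kinase of proliferating cells and the step between *ENO1* and *LDHA*, read 32521, 19647, 25105 and 27244 units on the wild-type, Arp5 KO, Arp8 KO and Arp8 OE arrays on one probe, and 24977, 14011, 17668 and 19097 on the other. Both probes put wild-type cells highest and Arp5 KO cells lowest, and the gene values were −0.78, −0.44 and −0.32, the first below those of all 10 members. *PFKL*, the liver-type phosphofructokinase, named after its values were seen, had −0.45, −0.71 and −0.33, below 0 under each alternative, and in Arp8 KO cells its probes had −0.55 and −0.87. *ALDOC*, the brain-type aldolase, read 3393, 2693, 4365 and 2277 units, which is 0.94 on the log2 scale in Arp8 KO over Arp8 OE. *LDHB*, which favors the use of lactate and is named for its bright probe, read 197990, 211422, 202944 and 205239 units, with log2 ratios to wild-type cells of 0.09, 0.04 and 0.05, the first between −0.05 and 0.18 and the second between −0.08 and 0.05 under the alternatives.

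The transporters of glucose and lactate were all detected (9 of 9), and most of their probes were dim. Beyond 2-fold lay 0, 1 and 1 of 9, beside 2.32%, 3.56% and 4.24% of all probes, and the medians were −0.30, −0.21 and −0.31. These counts were 0, 0 and 0 with normexp, and 1, 2 and 1 from the brightest probe of each gene. *SLC16A3*, the lactate exporter MCT4, read 64.3, 38.5, 29.8 and 36.9 units on the wild-type, Arp5 KO, Arp8 KO and Arp8 OE arrays. Wild-type cells were highest, and the log2 ratios were −0.74, −1.11 and −0.80, but −0.35, −0.49 and −0.29 with normexp, at which no call remains for this dim probe. *SLC2A6*, a glucose transporter family member, read 143, 92.3, 238 and 287 units, with log2 ratios of −0.63, 0.73 and 1.004, the last between 0.80 and 1.04 under the alternatives. *SLC16A1*, the lactate transporter MCT1, named for its brighter probe, had −0.30, −0.21 and −0.50. *SLC16A7*, the monocarboxylate transporter MCT2, named after its values were seen, had −0.81, −0.93 and −0.69 from 2 dim probes (−0.33, −0.30 and −0.20 with normexp). The brighter of these probes read 56.1, 25.6, 25.6 and 34.0 units and was beyond 2-fold in Arp5 KO and Arp8 KO cells, at −1.13 in both. The gene value passed 2-fold under 1 of 11 alternatives in Arp5 KO cells and under 2 of 11 in Arp8 KO cells. *SLC2A4*, likewise named after its values were seen, had 0.80, 0.51 and −0.31. Its dimmer probe was beyond 2-fold in Arp5 KO cells, at 1.18, and in Arp8 KO over Arp8 OE, at 1.03.

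Among the 5 enzymes that set fructose 2,6-bisphosphate, the activator of phosphofructokinase, 1 lay beyond 2-fold against wild-type cells on each of the other arrays, and it was *PFKFB4*. Of all probes 2.32%, 3.56% and 4.24% lay beyond 2-fold in Arp5 KO, Arp8 KO and Arp8 OE over wild type. Its probe read 1175, 347, 454 and 337 units on the wild-type, Arp5 KO, Arp8 KO and Arp8 OE arrays. The wild-type reading stands far above the other arrays, with log2 ratios of −1.76, −1.37 and −1.80, and the ratios stayed beyond 2-fold under each alternative. The low *PFKFB4* had been seen in the study's supplementary tables when the list was written. *TIGAR*, a bisphosphatase, named here for its brightness, had 0.35, 0.76 and 0.49, or 0.14, 0.65 and 0.39 from its brightest probe alone.

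In the pathways that leave or reverse glycolysis 0 genes lay beyond 2-fold, and 4 lay beyond 1.5-fold in a comparison (*PDK1*, *PDP2*, *PCK2*, *G6PC1*), while of all probes 8.89%, 12.3% and 13.3% lay beyond 1.5-fold against wild type and 8.46% between both Arp8 arrays. The shares beyond 2-fold were 2.32%, 3.56%, 4.24% and 1.86% in the same order. Of 12 measured genes of pyruvate entry to the mitochondrion 0 lay beyond 2-fold in any comparison; *PDK1*, which inhibits pyruvate dehydrogenase, had −0.21, −0.30 and −0.80, and *PDP2*, which reactivates it, 0.43, 0.46 and −0.24. Of 8 gluconeogenesis genes 6 were detected and 0 lay beyond 2-fold, or 1 in Arp5 KO cells with no filter on dim probes. *PCK2*, the mitochondrial PEP carboxykinase, read 16208, 26016, 18805 and 16853 units on its brighter probe and had gene values of 0.77, 0.26 and 0.15, while *G6PC1* was at background in wild-type cells and reached 12.7 and 12.1 units in Arp5 KO and Arp8 KO cells, where the values of 0.71 and 0.64 are lower bounds on a dim probe. All 6 pentose phosphate genes examined stayed within 1.5-fold in each comparison, with *TALDO1* at 0.06, 0.03 and 0.29 and *RPIA* at −0.00, 0.24 and −0.10 (for *TALDO1* the signs of the first and the second and for *RPIA* that of the first turned under some alternatives). The 5 genes of the serine branch did as well, with *PSAT1* at −0.38, −0.22 and −0.17 and *PSPH* at −0.09, 0.18 and 0.22, the first of these between −0.14 and 0.02 under the alternatives.

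Of 20 HIF target genes outside glycolysis 17 were detected, and for 9 of them the ratio lay below 0 on all 3 arrays (9 or 10 under the alternatives), as it did for 8 of the 10 glycolysis genes (7 or 8). Among all probes well above background 24.2% were brightest on the wild-type array. In Arp5 KO cells 4 of 17 lay beyond 2-fold, all lower (*BNIP3*, *BNIP3L*, *ADM*, *EGLN3*; 2 of them with normexp), beside 2.32% of all probes, and the median was −0.33. In Arp8 KO cells 1 of 17 did, *EGLN3*, higher, beside 3.56% of all probes, with a median of −0.10, and for Arp8 OE 1 of 17, *P4HA1*, lower, beside 4.24%, with a median of −0.35. A count of 1 in 17 does not stand apart from those shares. *BNIP3*, a mitophagy receptor, read 22891, 10753, 14951 and 13054 units on the wild-type, Arp5 KO, Arp8 KO and Arp8 OE arrays, with log2 ratios of −1.09, −0.61 and −0.81, below 0 under each scaling. *BNIP3L*, its relative, had −1.08, −0.78 and −0.93, the first at −0.99 with scaling to the spike-in RNAs. *P4HA1*, a collagen prolyl hydroxylase, read 1194, 666, 795 and 586 units and had −0.84, −0.59 and −1.03. For *BNIP3*, *BNIP3L* and *P4HA1* wild-type cells were the highest array, as they were for most glycolysis genes. Other genes of the list, named after their values were seen, differed from this. *NDRG1* lay above 0 on all 3 arrays, at 0.38, 0.42 and 0.32, and *DDIT4* had 0.20, 0.36 and −0.34.

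For *ADM* and *EGLN3* the arrays fell in another order. *ADM*, a vasodilator peptide, read 109, 43.4, 125 and 77.0 units from 10 spots, with log2 ratios of −1.33, 0.20 and −0.50, the first at −0.73 with normexp. *EGLN3*, an oxygen sensor that marks HIF for degradation, was at the limit of detection: it read 17.0 units in wild-type cells, was at background in Arp5 KO cells, and read 42.0 units for Arp8 KO and 30.9 for Arp8 OE. Its log2 ratios were −1.28 or lower, 1.31 and 0.87, and −0.23, 0.35 and 0.26 with normexp, and at signals under 50 units the SD of a log2 ratio between repeated spots was 0.45, 0.46 and 0.44. The *EGLN3* values too had been seen in supplementary tables.

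**Figure D4:**
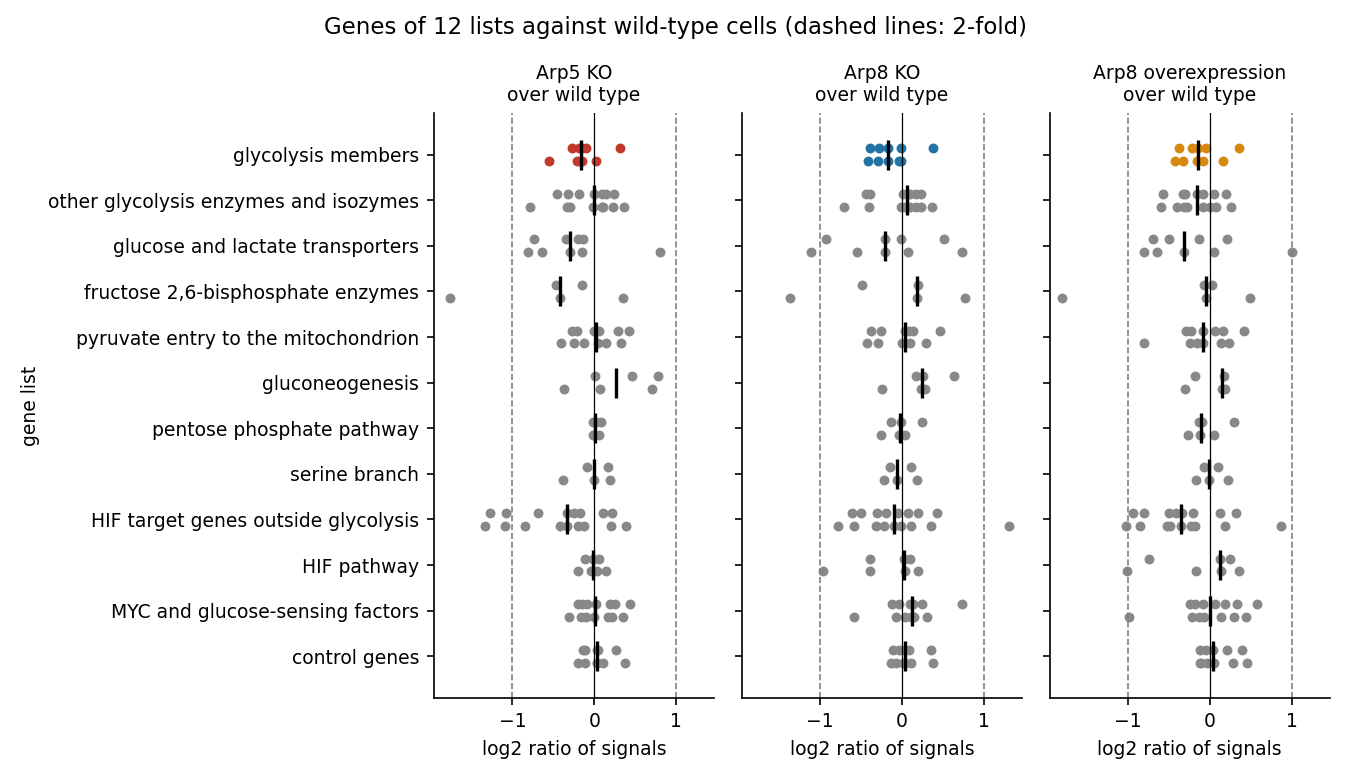
Log2 ratio to wild-type cells (horizontal axis) of each detected gene (dots) and the median (black line) of 12 gene lists on 3 arrays, 1 array per group, with dashed lines at 2-fold. The glycolysis genes (colored, top) stay within 1.5-fold, with medians of −0.17, −0.17 and −0.15. *PFKFB4* and some HIF target genes reach farther to the left, while the dim *EGLN3* lies to the right, at 1.31, in Arp8 KO cells.

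Of the regulators themselves, 7 of 8 genes in the HIF pathway list were detected, and 0, 0 and 1 lay beyond 2-fold against wild type, counts too small to set apart from the 2.32%, 3.56% and 4.24% of all probes. The 1 gene was *HIF3A*, an alpha subunit with inhibitory splice forms, at −1.01 (−1.86 to −0.41 under the alternatives), whose detected probes had −0.15 and −1.86 and are dim. *HIF1A*, the main oxygen-regulated subunit, named after its values were seen, read 2494, 2430, 2563 and 2709 units, with ratios of −0.04, 0.04 and 0.12 (the signs of the first and the second turn with scaling to the spike-in RNAs). *EPAS1*, which encodes HIF-2alpha and was also named after its values were seen, had −0.11, −0.96 and −0.74. Its brighter probe read 1263, 1045, 583 and 761 units, and the Arp8 KO value passed 2-fold from that probe alone, at −1.11, and with scaling to the spike-in RNAs. These were 2 of 11 alternatives, and with normexp the Arp8 KO and Arp8 OE values were −0.63 and −0.44. All 14 genes of the list of MYC and glucose-sensing factors were detected, and against wild-type cells 0 lay beyond 2-fold, likewise too few genes to set apart. From the brightest probe of each gene, 1 did in Arp8 KO cells, *MXD4*, a MAX partner that opposes MYC, at 1.002 in place of 0.73. *MYC* read 67249, 70455, 71096 and 35672 units on the wild-type, Arp5 KO, Arp8 KO and Arp8 OE arrays on its probe with 10 spots. Only the Arp8 OE array was low, and the log2 ratios of the gene were 0.21, 0.12 and −0.99 (the last −1.04 to −0.84 under the alternatives), with 1.11 between both Arp8 arrays (0.93 to 1.14 under the alternatives).

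The control genes and spike-in RNAs give the level from which these small ratios are read. Of 11 control genes 0 lay beyond 1.5-fold in any comparison, and their medians against wild-type cells were 0.03, 0.03 and 0.04. Against wild type 8.89%, 12.3% and 13.3% of all probes lay beyond 1.5-fold, and 8.46% between both Arp8 arrays. A count of 0 among 11 genes does not set them apart at these shares. *B2M*, with 92319, 110961, 120198 and 125872 units, had 0.27, 0.38 and 0.45, above 0 under each scaling, and *SDHA* had −0.12, 0.11 and 0.39, the second at −0.01 with scaling to the spike-in RNAs. *RPLP0*, a ribosomal protein gene with very bright probes, had 0.03, −0.03 and −0.04 (the signs of the first and the second turn under some alternatives). Other controls, named after their values were seen, lay on both sides of 0. *YWHAZ* had −0.20, −0.13 and −0.11, whereas *GUSB* had 0.37, 0.35 and 0.28. The *ACTB* probe with 10 spots had −0.35, −0.32 and −0.15, although the gene values of *ACTB* were 0.03, −0.08 and 0.04. The 6 E1A spike-in RNAs over 500 units, on 32 spots each, had median log2 ratios against wild type of −0.08, 0.11 and 0.00, and the brightest of them, at 186164 units in wild-type cells, had −0.11, 0.03 and −0.04. Scaling to them instead of the 75th percentile moves the median of all probes by 0.08, −0.11 and −0.00, and the glycolysis medians with it, to −0.09, −0.29 and −0.15. Under that scaling the medians of all probes were 0.13, −0.10 and 0.01.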

How the data were processed

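The authors deposited the output of Agilent Feature Extraction for each of 4 single-color arrays, from 1 slide, and a table of values. The deposited signal is a linear intensity after the software's background subtraction and detrending, without scaling between arrays, and the authors' table was found to hold the same intensity times 1 factor per array. The deposited files also hold other marks per spot (outlier, saturated, well above background). No spot was saturated, and the lowest signal taken from a second, low-gain scan was between 17950 and 18305 units.

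Each log2 signal was set against the 75th percentile of its array, over 43376 spots that are not controls. Spots marked as outliers were dropped, repeated spots were averaged, and a gene is the median of its detected probes. A probe not well above background on the dimmer array was raised to a floor, which makes the ratio a bound. The floor was 7.76, 7.00, 9.33 and 8.73 units for wild type, Arp5 KO, Arp8 KO and Arp8 OE. Between 30394 and 31420 spots per array were well above background. Called means beyond 2-fold, the threshold of the study; 1.5-fold is also given. No test was possible with 1 array per group. Probes were named by accession through a RefSeq gene table of GRCh38.p14, which matched 26222 of 41000 probes (64.0%). The array files name another build, and coordinates are given only for the promoter windows, in the build of RefSeq.

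The members and lists were chosen with earlier results of these data known. Of each list the genes beyond 2-fold in a comparison are named, or the 2 with the largest values, and in some lists the brightest. Alternatives were other scalings, the authors' table, normexp, other summaries of probes, other filters and other fold thresholds. Spike-in scaling and probes of the high-gain scan only were alternatives chosen after seeing the data. Normexp used an offset of 50 on the median signal and was followed by quantile normalization. It thus changes background correction and scaling together, and their shares in a shift were not told apart. Python 3.11.15, numpy 2.4.6, pandas 2.3.3, matplotlib 3.10.9, R 4.3.3 and limma 3.58.1 were used.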

Additional observations from a re-analysis of the deposited data

How the results depend on the processing

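Of the glycolysis genes, 0 lay beyond 2-fold in any comparison under each of 12 alternatives that recompute their values, of which 1 measures 3 of the genes. At 1.5-fold the count in Arp5 KO cells became 1 under 2 of them. Of 452 recomputed gene values, 174 were equal to the first value (within 1e-09), many of them since filters on dim probes cannot move these bright genes, nor other summaries those with 1 probe, 159 changed by less than the technical SD of repeated spots, and 119 moved further. Medians of the 10 genes that moved further were −0.22 for Arp5 KO, −0.22 for Arp8 OE and 0.030 between both Arp8 arrays with quantile normalization; −0.20 and −0.20 for Arp5 KO and Arp8 OE with the authors' table; and −0.24 and −0.23 for the same arrays with normexp. The brightest probe of each gene gave −0.13 for Arp8 KO. Scaling to the spike-in RNAs, chosen after seeing the data, gave −0.086 for Arp5 KO, −0.29 for Arp8 KO and −0.12 between both Arp8 arrays. Only probes of the high-gain scan, also chosen after seeing the data and present for 3 genes, gave −0.20, −0.22 and 0.062 for Arp5 KO, Arp8 KO and between both Arp8 arrays. The median between both Arp8 arrays thus lay on either side of 0. The cause of these shifts was not tested. No paired analysis was possible because the labels pair no arrays and each group holds 1. Signal over background limits the dim genes (*EGLN3*, *SLC16A3*, *ADM*, *G6PC1*) and none of the 17 glycolysis probes, which were well above background on all 4 arrays.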
